A study of Mus musculus with 24 samples.

Results

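The genes described here encode the machinery that stores transmitter in synaptic vesicles and fuses those vesicles with the cell membrane. They were chosen by symbol: Syt, Stx, Vamp or Snap followed by digits and an optional letter, any symbol beginning with Stxbp, Rims, Cplx or Sv2, and Syn1, Syn2 and Syn3. The rule found 66 of the 24421 symbols in the RNA-seq table and 65 of the 24411 in the MeRIP-seq table, where Vamp7 was not analysed. It takes in Snap91, which encodes the clathrin adaptor AP180 and is not a SNARE, and Stxbp3-ps, a pseudogene of Stxbp3 whose reads cannot be told apart from those of the parent gene with certainty. Several syntaxins and Vamps in the list act at endosomes, the Golgi or the plasma membrane of many cell types, so not every member is confined to neurons.

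The tissue was the L4/5 dorsal root ganglion (DRG) of C57BL/6 mice, the ganglion that holds the cell bodies of sensory neurons together with satellite glia, Schwann cells, fibroblasts and immune cells. RNA-seq covered 12 libraries, 3 each from mice with the Mettl14 conditional knockout (Mettl14cKO, genotype label Mettl14-/-) 1 day after sciatic nerve injury (SNLD1, called the lesion below), naive Mettl14cKO mice, wild-type mice at SNLD1 and naive wild-type mice. Mettl14 is a subunit of the methyltransferase that writes N6-methyladenosine (m6A) on RNA, and the Cre line that deletes it is not named in the labels. MeRIP-seq, in which RNA pulled down by an m6A antibody (IP) is counted beside input RNA, covered 3 IP and 2 input libraries at SNLD1 and 3 IP and 2 input libraries from naive mice, all wild type. Single m6A bases came from miCLIP, with 1 wild-type library titled SNL, for which no day is given, and 1 titled naive. The treatment label of all libraries names either sham surgery or nerve crush, so whether the naive mice had sham surgery was not settled.

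At a chemical synapse, a vesicle SNARE of the Vamp family zips together with syntaxin and a Snap protein on the target membrane, and this pulls the membranes together until they fuse. Complexins clamp the SNARE complex, and synaptotagmins sense the calcium that triggers release. Rims anchor vesicles at the active zone, SV2 proteins are vesicle glycoproteins, and synapsins hold the reserve pool. DRG cell bodies make these proteins for release sites at the far ends of the axons, in the spinal cord and in the skin. Related SNAREs also add membrane to growing axons.

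The libraries matched their labels in 2 respects. Mettl14 was at 15.6 ± 1.35 CPM in Mettl14cKO SNLD1 ganglia, against 20.1 ± 0.650 CPM in wild-type SNLD1 ganglia, and at 16.0 ± 2.49 CPM in naive Mettl14cKO ganglia, against 23.4 ± 0.605 CPM in naive wild-type ganglia (SD, n = 3 each; CPM are read counts relative to the TMM-scaled library size). Over both conditions it fell by 0.46 on the log2 scale in Mettl14cKO (edgeR quasi-likelihood test, adjusted p = 0.045), so much of its RNA was still counted. Atf3, a transcription factor induced by axon injury, spanned 163 to 197 CPM in Mettl14cKO SNLD1 libraries, against 13.4 to 21.2 CPM in naive Mettl14cKO libraries, and 243 to 505 CPM in wild-type SNLD1 libraries, against 8.51 to 11.1 CPM in naive wild-type libraries. The summed level of 4 Y-linked genes was at most 0.14 CPM in 5 of the 12 RNA-seq libraries and 130 to 468 CPM in the other 7, with both kinds in each group, so the sex of the mice differed between replicates. RNA-seq libraries held 5707837 to 12639160 counts and MeRIP-seq libraries 846785 to 19653733. Of 19 pan-neuronal markers, 4 were called lower in Mettl14cKO over both conditions (Nefh, Nefl, Nefm and Elavl4), and 15 lay below 0. Of 8 fibroblast markers, 4 were called higher and 3 lay below 0, 2 of these at an unadjusted p under 0.05 by edgeR. All 8 neutrophil markers lay below 0, 7 of them at an unadjusted p under 0.05, but 0 were called. Of 10 satellite glia markers 1 was called lower, and of 10 myelinating Schwann cell markers 1 was called higher. The summed level of those 8 fibroblast markers spanned 5127 to 10606 CPM in Mettl14cKO SNLD1 libraries and 3326 to 4050 CPM in wild-type SNLD1 libraries, and the summed level of 8 neutrophil markers varied from 163 to 1425 CPM within the naive wild-type libraries. In whole ganglia, fewer cells of a type and less RNA per cell cannot be told apart, and the part of these markers in the results below was not tested.

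Of the 66 members, 57 had enough counts to be tested in RNA-seq. The others were Cplx3, Cplx4, Rims3, Rims4, Stx19, Stxbp3-ps, Syt8, Syt13 and Syt17. Rims4 had 0 counts in all 12 libraries, which allows up to 0.0318 CPM over the pooled counts, and Rims3 had 1 to 10 counts per library. The 57 passed in part because of the groups in which they are high, and their counts are read below against the same counts over all 13291 genes tested.

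m6A sites were common in the members. In the miCLIP lists, 36 of 66 members (54.5%, exact binomial 95% interval 41.8 to 66.9%) had at least 1 site within their span, where 26.9% of all 24300 matched symbols did. Among symbols that passed the RNA-seq filter the shares were 35 of 57 (61.4%) for the members and 44.4% overall. Each list alone gave 32 of 66 members (48.5%, where 22.3% of all symbols had a site in the SNL list and 19.3% in the naive list), with 168 sites in the SNL list and 161 in the naive list. The lists differed in size, with 18677 sites in the whole SNL list and 14446 in the whole naive list. Sites rested on few reads: 83.9% of the member entries had 1 mutated read, where 89.9% of all sites did. The median coverage was 6 reads in the member entries and 4 over all sites. The part of read coverage in the shares of genes with a site was not tested, and the intervals cover counting error only. With at least 3 mutated reads, 5 members remained in either list (7.58%, where 1.38% of all symbols did), and 16 members had a site at the same base in both lists (24.2%, where 7.05% of all symbols did). With 1 library per condition there is no test between the lists.

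The 5 members with most sites held 184 of the 329 entries. Syt11 had 23 sites in the SNL list and 26 in the naive list, Cplx2 18 and 17, Cplx1 15 and 18, and Rims3 19 and 14. Syt2 had 10 in the SNL list (exact Poisson 95% interval 4.80 to 18.4), against 24 in the naive list (15.4 to 35.7). Next came Sv2b with 8 and 6, Syt4 with 9 and 4, and Snap25 with 7 and 5. By family, 9 of 17 synaptotagmins, 9 of 15 syntaxins, 4 of 7 Vamps, 2 of 4 Snaps, 3 of 4 Rims, 2 of 4 complexins, 3 of 3 SV2 genes, 2 of 3 synapsins and 1 of 8 syntaxin-binding proteins had a site. The 3 entries counted for Syn3 lie inside Timp3, a gene that lies within its span, and cannot be assigned to Syn3. Syn3 is still counted as a member with a site throughout, including in the family counts above and the pulldown comparison below. The numbers of sites per member in the SNL list and in the naive list had a Spearman rho of 0.84 over the 66 members. This describes 2 libraries that share gene length and RNA level.

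**Figure D1:**
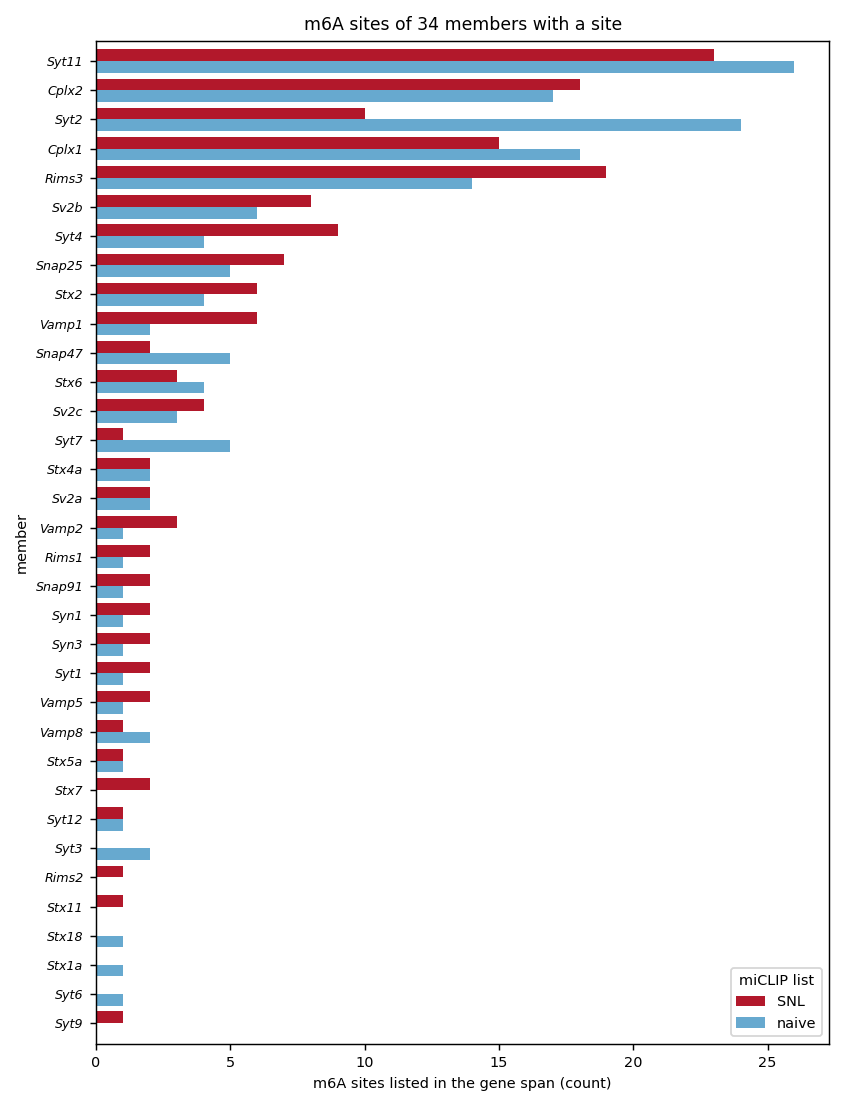
Number of m6A sites listed within the gene span (x axis) of 34 of the 36 members with a site (y axis), in the SNL list and in the naive list, 1 library each. Syt11, Cplx2, Syt2, Cplx1 and Rims3 hold most of the sites, and Syt2 has 10 in the SNL list and 24 in the naive list.

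The bases around 8 sites are shown because m6A is known to be written in a short context in which C follows the A. All sites in both lists, in members and in other genes, had C after the A, so the 8 sites could show no other base there. All sites below were listed in both libraries and had at least 3 mutated reads in 1 of them, and the methylated base is in capitals. Positions are in mm10 and lie inside the span of the gene, on the minus strand; whether each is in an exon or an intron was not analysed here.
Cplx1 at chr5:108519658-108519658: ggAct
Cplx1 at chr5:108519727-108519727: ggAct
Cplx1 at chr5:108520251-108520251: tgAct
Cplx1 at chr5:108525519-108525519: ggAcc
Stx2 at chr5:129008514-129008514: ggAcc
Syt11 at chr3:88761755-88761755: tgAcc
Syt11 at chr3:88762021-88762021: tgAcc
Syt11 at chr3:88762169-88762169: tgAcc

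At the Cplx1 site 108520251, 3 of 16 reads were mutated in the SNL list, against 4 of 21 in the naive list. At the Cplx1 site 108525519 the counts were 2 of 20 in the SNL list, against 4 of 26 in the naive list. At the Syt11 site 88762021, 3 of 10 reads were mutated in the SNL list, against 2 of 12 in the naive list. The counts are too small to order the libraries. Over all member entries, 84.5% had G before the methylated A, where 83.1% of all sites did, and ggAcc was the most frequent context in the members (15.2%) and over all sites (16.2%). Of 221 distinct positions on the strand of the 27 members with a known strand and a site, 55.7% lay in the last 10% of the span. Members differed, with 24 of 25 in Cplx2, 27 of 31 in Syt2, 16 of 23 in Cplx1 and 15 of 38 in Syt11. Few lay there in Vamp1 (0 of 6), Stx6 (1 of 6) and Sv2c (1 of 6). The share over the sites of all genes was not analysed, so this does not set the members apart.

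One member rose after the lesion. Stx11, a syntaxin best known for granule release by cytotoxic lymphocytes, was at 5.68, 5.92 and 5.05 CPM in the Mettl14cKO SNLD1 libraries, against 2.69, 2.09 and 3.10 CPM in the naive Mettl14cKO libraries. In wild-type mice it was at 5.98, 2.74 and 7.93 CPM at SNLD1, against 3.19, 1.09 and 1.82 CPM in naive libraries. The groups were separate in Mettl14cKO and overlapped in wild type, where SNLD1 library 2 lay below naive library 1. The log2 difference was 1.23 (SE 0.28) over both genotypes, with an adjusted p of 0.021 by edgeR's quasi-likelihood test, and the 95% interval was 0.64 to 1.82. Within a genotype it was 1.06 (SE 0.40, adjusted p = 0.315) in Mettl14cKO and 1.41 (SE 0.39, adjusted p = 0.129) in wild type, and it passed in neither. The call rested on low counts and was lost without naive Mettl14cKO library 2, Mettl14cKO SNLD1 library 1, naive wild-type library 3 or wild-type SNLD1 library 3, with adjusted p values of 0.058 to 0.090. Of 10 macrophage markers, summed levels spanned 172 to 332 CPM in Mettl14cKO SNLD1 libraries and 150 to 237 CPM in naive Mettl14cKO libraries, and 169 to 282 CPM in wild-type SNLD1 libraries and 134 to 254 CPM in naive wild-type libraries; those of 8 neutrophil markers spanned 189 to 728 CPM and 170.2 to 301 CPM, and 283 to 1631 CPM and 163 to 1425 CPM, in the same order. The part of either list in the Stx11 result was not tested.

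That was 1 of 57 members called over both genotypes, where 2.56% of all genes tested were called, 2.02% higher and 0.542% lower. Within wild type 0 of 57 were called by edgeR, where 1.02% of all genes were, 0.948% higher and 0.0752% lower. DESeq2 called 2 members in wild type, Stx11 and Syt4 (3.51%, where 1.59% of all genes were called). Within Mettl14cKO 0 of 57 were called by edgeR or DESeq2, where 0.685% of all genes were called by edgeR, 0.624% higher and 0.0602% lower, and 1.44% by DESeq2. At an unadjusted p under 0.05, 2 members were higher and 1 lower in wild type (3.51% and 1.75%, where 4.84% and 2.51% of all genes were), and 2 were higher and 3 lower in Mettl14cKO (3.51% and 5.26%, where 5.21% and 5.43% of all genes were). The median log2 difference of the members was 0.04 in wild type, beside -0.01 over all genes, and -0.01 in Mettl14cKO, beside 0.01 over all genes. The 95% interval of the difference lay inside a 2-fold change in either direction for 49 of 57 members in wild type, 49 of 57 in Mettl14cKO, and 56 of 57 over both genotypes, with Stx11 as the exception. Over all genes the shares were 73.3%, 69.5% and 86.9%, and the members' shares 86.0%, 86.0% and 98.2%. The plot of differences by gene family shows how close to 0 most of the members lay.

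**Figure D2:**
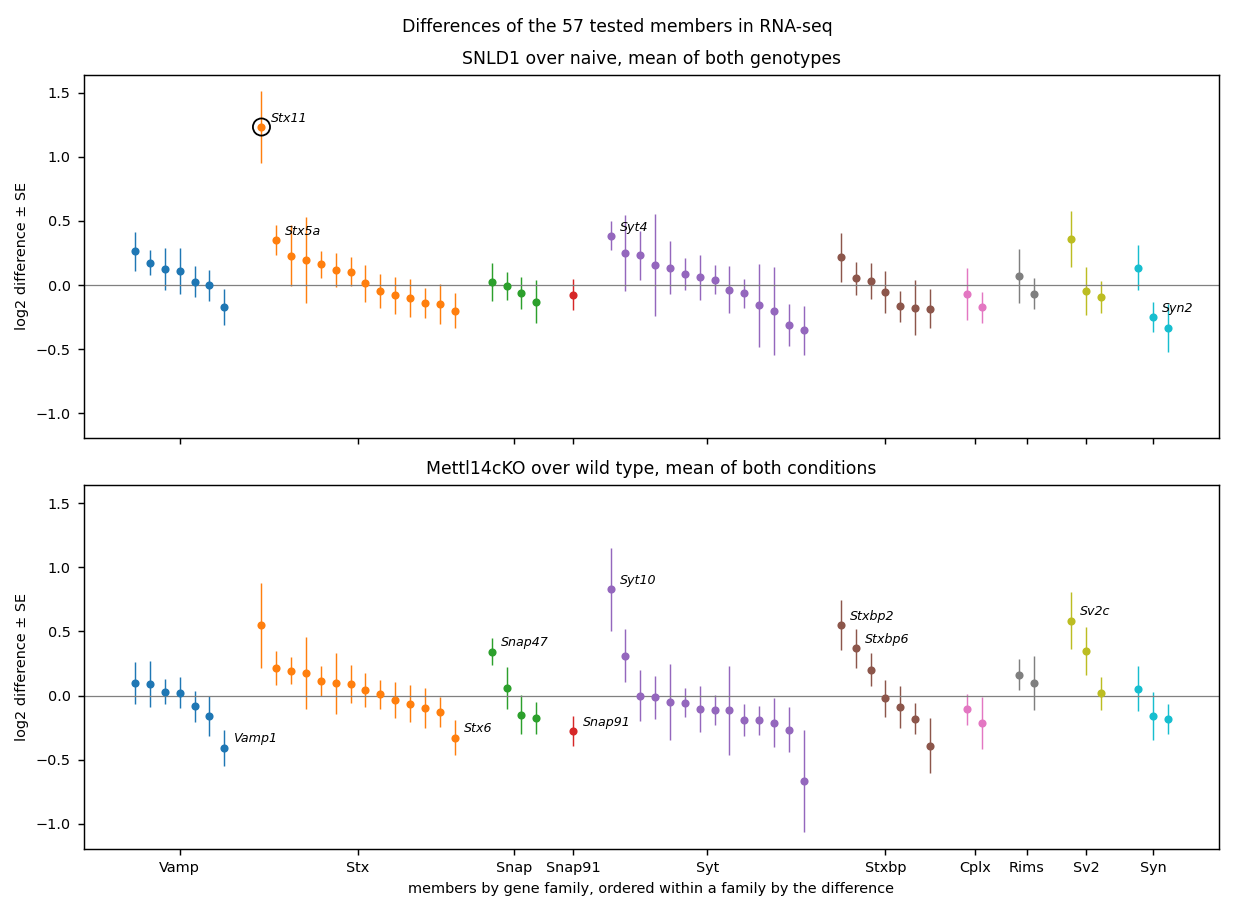
Log2 difference (y axis, bars are SE) of each of the 57 tested members, grouped by family along the x axis, for SNLD1 over naive and for Mettl14cKO over wild type; names mark members with an unadjusted p under 0.05 and the ring marks a member called at an adjusted p under 0.05. Stx11, at 1.23, is the one ringed point. Most other points lie around 0, and in the genotype panel the outermost are Syt10 at 0.83 and Syt2 at -0.66, neither called.

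Among the synaptotagmins, Syt4 stood out in wild type. Syt4 does not bind calcium as Syt1 does and is known as an activity-regulated gene. It was at 1554, 1823 and 1868 CPM in wild-type SNLD1 libraries, against 1128, 1332 and 848 CPM in naive wild-type libraries. In Mettl14cKO it was at 1242, 1239.9 and 1291 CPM at SNLD1, against 1098, 1204 and 1218 CPM in naive libraries. The SNLD1 libraries lay above the naive ones without overlap in both genotypes, and the spacing was wider in wild type. The log2 difference in wild type was 0.67 (SE 0.16), and it did not pass at an adjusted p of 0.056. It was 0.38 (SE 0.11, adjusted p = 0.091) over both genotypes. The difference between the injury effects, Mettl14cKO minus wild type, was -0.57 (SE 0.23, adjusted p = 0.998). At SNLD1 the Mettl14cKO libraries lay below the wild-type ones, by -0.48 on the log2 scale (SE 0.16, adjusted p = 0.161). The wild-type difference passed in 5 of 18 alternatives, among them without naive wild-type library 2, with DESeq2 (adjusted p = 0.0064), without the filter on low counts and with the share of Y-linked counts as a covariate.

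The major calcium sensor Syt1 was at 126 ± 16.4 CPM in Mettl14cKO SNLD1, 145 ± 19.5 in naive Mettl14cKO, 155 ± 9.40 in wild-type SNLD1 and 127 ± 19.1 CPM in naive wild-type ganglia (SD, n = 3 each, as for the levels that follow). Syt11, which does not bind calcium and acts in membrane retrieval, was at 1153 ± 169, 1116 ± 229, 1349 ± 239 and 1239 ± 65.9 CPM in the same order. Syt7, a slow high-affinity sensor, spanned 12.05 to 28.4 CPM in Mettl14cKO libraries and 15.9 to 29.1 CPM in wild-type libraries, and Syt9 spanned 29.1 to 42.3 and 31.7 to 41.2 CPM. Syt6 had a lesion effect of -0.31 over both genotypes (SE 0.16, adjusted p = 0.451). Syt2, the fast sensor of many central and motor synapses, was low throughout, at 0.42 to 1.96 CPM in Mettl14cKO libraries and 0.92 to 3.07 CPM in wild-type libraries. The injury effect on Syt3 differed most among the members with a positive value, by 1.19 (SE 0.69, adjusted p = 0.998), and did not pass. Each of these genes overlapped between SNLD1 and naive libraries in both genotypes.

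The neuronal SNAREs did not pass in any RNA-seq comparison. Snap25, the neuronal target SNARE, was at 4696 ± 1068 CPM in Mettl14cKO SNLD1, 4800 ± 893 in naive Mettl14cKO, 5191 ± 298 in wild-type SNLD1 and 5515 ± 399 CPM in naive wild-type ganglia. The 95% interval of its log2 difference with the lesion, over both genotypes, was -0.32 to 0.21. For Stx1a, the interval was -0.27 to 0.73 and for Vamp2 -0.27 to 0.49. Stx1a, the main syntaxin of release sites, spanned 4.02 to 10.2 CPM in Mettl14cKO libraries, against 4.23 to 8.30 CPM in wild-type libraries. Vamp2, the vesicle SNARE of most central synapses, spanned 13.1 to 21.0 CPM in Mettl14cKO libraries and 11.2 to 23.5 CPM in wild-type libraries. Snap23, the widely expressed relative of Snap25, spanned 25.8 to 38.4 CPM in Mettl14cKO libraries and 27.9 to 47.9 CPM in wild-type libraries.

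Lesion and naive libraries did not overlap for a few members. In wild type, 4 of 57 members lay above naive in every SNLD1 library (7.02%; Stx5a, Stx7, Syt4 and Vamp4), where 6.08% of all genes did, and 1 lay below (1.75%; Snap29), where 4.95% did. In Mettl14cKO, 5 of 57 lay above (8.77%; Snap29, Stx5a, Stx11, Syt4 and Vamp4), where 8.32% of all genes did, and 3 lay below (5.26%; Stxbp5, Stxbp6 and Syn2), where 9.38% did. These shares lay near or below those over all genes. Stx5a, a syntaxin of the Golgi, was at 50.6, 52.3 and 46.3 CPM in Mettl14cKO SNLD1 libraries, against 32.3, 41.7 and 37.0 CPM in naive Mettl14cKO libraries, a log2 difference of 0.43 (SE 0.16, adjusted p = 0.318). In wild type it was at 43.7, 42.8 and 44.4 CPM at SNLD1, against 30.8, 42.5 and 35.0 CPM in naive libraries. Snap29, a SNARE of autophagosome fusion, was at 5.86, 7.19 and 5.89 CPM in Mettl14cKO SNLD1 libraries, against 5.38, 4.36 and 5.59 CPM in naive Mettl14cKO libraries. Its wild-type libraries ran the other way, with 4.91, 4.23 and 4.39 CPM at SNLD1, against 6.58, 6.41 and 6.92 CPM in naive libraries, a log2 difference of -0.56 (SE 0.23, adjusted p = 0.546). The difference between the injury effects on Snap29 was 0.86 (SE 0.33, adjusted p = 0.998), so it did not pass. No gene passed this test of the difference between injury effects, either among the 57 members or among all 13291 genes (0%) by edgeR. DESeq2 called 0 members and 3 genes. By edgeR, 201 genes (1.51%) had an unadjusted p under 0.05 in the higher direction and 291 (2.19%) in the lower direction. Of these, 1 and 3 were members (1.75% and 5.26% of the members).

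Synapsins, complexins, Rims and SV2 proteins gave no call with the lesion. Syn2, a synapsin, was at 24.2, 21.4 and 26.5 CPM in Mettl14cKO SNLD1 libraries, against 29.6, 31.2 and 36.01 CPM in naive Mettl14cKO libraries, a log2 difference of -0.43 (SE 0.17, adjusted p = 0.338). In wild type its libraries overlapped, at 30.8 ± 2.58 CPM at SNLD1 and 32.3 ± 3.66 CPM in naive ganglia, and over both genotypes the log2 difference was -0.25 (SE 0.12, adjusted p = 0.374). Syn1 was at 9.43 ± 2.45 CPM in Mettl14cKO SNLD1, 14.1 ± 2.77 in naive Mettl14cKO, 12.6 ± 3.46 in wild-type SNLD1 and 13.1 ± 3.41 CPM in naive wild-type ganglia, and Syn3 stayed between 4.45 and 7.81 CPM in all 12 libraries. The complexins Cplx1 and Cplx2 spanned 80.6 to 111 and 16.9 to 26.8 CPM in Mettl14cKO libraries, against 84.0 to 129 and 14.6 to 37.1 CPM in wild-type libraries. The active zone scaffolds Rims1 and Rims2 spanned 5.08 to 11.2 and 18.2 to 25.3 CPM in Mettl14cKO libraries, against 5.37 to 9.26 and 17.5 to 21.1 CPM in wild-type libraries. Among the syntaxin-binding proteins, Stxbp5 (tomosyn, which competes with Vamp for syntaxin) was at 19.9, 22.3 and 22.3 CPM in Mettl14cKO SNLD1 libraries, against 26.5, 27.2 and 33.8 CPM in naive Mettl14cKO libraries, a log2 difference of -0.44 (SE 0.17, adjusted p = 0.338). In wild type it was at 29.4, 31.8 and 27.3 CPM at SNLD1, against 31.3, 23.5 and 27.2 CPM in naive libraries, and the difference between the injury effects was -0.55 (SE 0.24, adjusted p = 0.998).

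**Figure D3:**
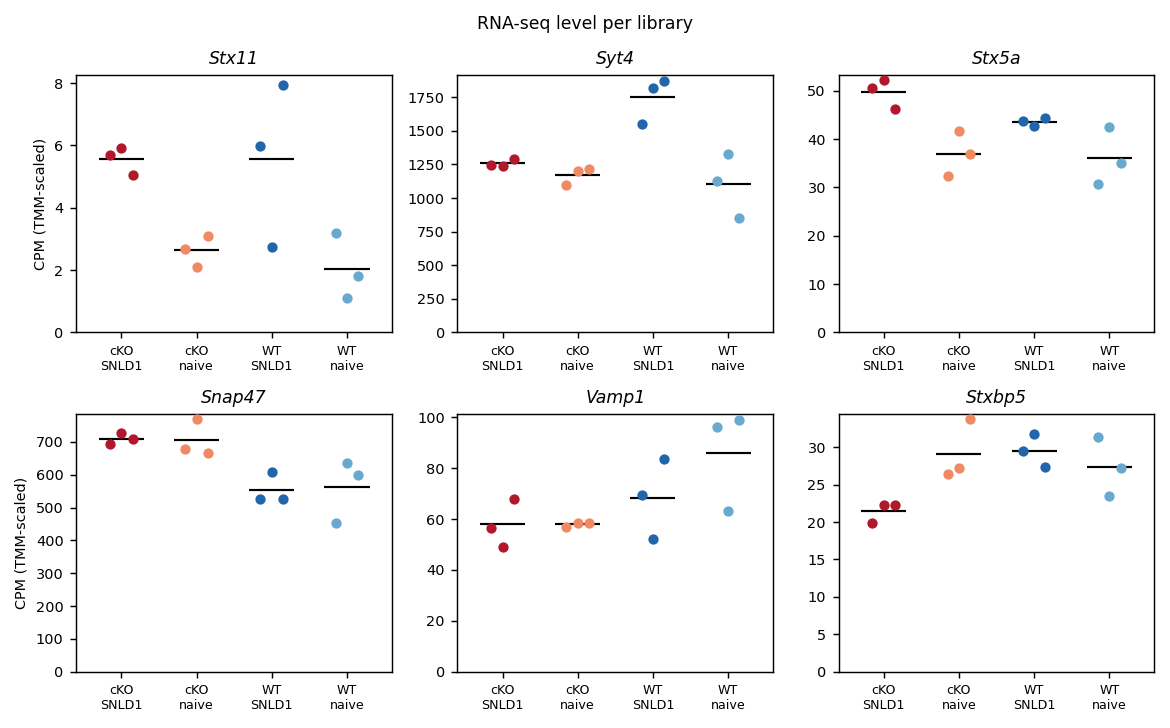
TMM-scaled CPM (y axis) in each RNA-seq library for 6 members, with Mettl14cKO SNLD1, naive Mettl14cKO, wild-type SNLD1 and naive wild-type libraries from left to right; points are libraries and lines are group means (n = 3 each). Stx11 was higher at SNLD1, Syt4 had its highest libraries in wild-type SNLD1 at 1554 to 1868 CPM, and Snap47 was higher in both Mettl14cKO groups.

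Between genotypes, edgeR called 0 of 57 members in naive mice, where 0.286% of all genes were called, 0.173% higher and 0.113% lower. At SNLD1 it called 0 members, where 1.46% of all genes were called, 0.948% higher and 0.512% lower. Over both conditions it called 0, where 3.33% of all genes were called, 2.04% higher and 1.29% lower. DESeq2 called 1 member over both conditions (1.75%, where 4.87% of all genes were called). It called 0 in either alone, where 0.579% of all genes were called in naive mice and 3.13% at SNLD1. At an unadjusted p under 0.05, 1 member was higher and 1 lower in naive mice (1.75% each, where 4.33% and 3.27% of all genes were). At SNLD1 4 were higher and 4 lower (7.02% each, where 7.46% and 6.91% of all genes were), and over both conditions 5 were higher and 3 lower (8.77% and 5.26%, where 9.19% and 7.79% of all genes were). The summed level of the 19 pan-neuronal markers spanned 9939.9 to 11222 CPM in Mettl14cKO libraries and 11053 to 13583 CPM in wild-type libraries, and its part in these differences was not tested. Of the members with no overlap between genotypes in naive mice, 3 lay above wild type (Snap47 and Stxbp6 among them), where 6.11% of all genes did, and 4 below (Snap29, Stx6, Syt2 and Vamp1), where 4.65% did. At SNLD1, 7 lay above, where 9.66% of all genes did, and 6 below, where 10.3% did. The 95% interval over both conditions lay inside a 2-fold change for 53 of 57 members (93.0%, where 85.3% of all genes did), and Sv2c, Syt2 and Syt10 were among the exceptions.

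Snap47, a Snap relative that also occurs on intracellular membranes, lay above wild type in both conditions. It was at 695, 728 and 708 CPM in Mettl14cKO SNLD1 libraries, against 525, 608 and 527 CPM in wild-type SNLD1 libraries. In naive mice it was at 679.8, 769.7 and 665 CPM in Mettl14cKO libraries, against 453, 637 and 599 CPM in wild-type libraries. The log2 difference was 0.36 (SE 0.15, adjusted p = 0.267) at SNLD1, 0.32 (SE 0.15, adjusted p = 0.649) in naive mice and 0.34 (SE 0.11, adjusted p = 0.091) over both conditions, with a 95% interval of 0.12 to 0.57. It passed over both conditions in 2 of 17 alternatives, DESeq2 among them (adjusted p = 0.047), and the genotypes did not overlap within either condition.

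Vamp1, the vesicle SNARE of motor terminals and many sensory neurons, was at 56.9, 58.3 and 58.6 CPM in naive Mettl14cKO libraries, against 96.0, 63.3 and 98.9 CPM in naive wild-type libraries. The log2 difference was -0.57 (SE 0.20, adjusted p = 0.417), with wild-type library 2 close to the Mettl14cKO values. At SNLD1 Vamp1 was at 56.5, 49.2 and 68.0 CPM in Mettl14cKO libraries, against 69.6, 52.2 and 83.5 CPM in wild-type libraries, and the groups overlapped. Over both conditions the log2 difference was -0.41 (SE 0.14, adjusted p = 0.133), and with the lesion in wild type it was -0.33 (SE 0.20, adjusted p = 0.827). Stx6, a syntaxin of endosomes and the trans-Golgi, was at 10.5 ± 0.827 CPM in Mettl14cKO SNLD1, against 13.0 ± 2.10 CPM in wild-type SNLD1 ganglia, and at 11.9 ± 0.848 CPM in naive Mettl14cKO, against 15.1 ± 0.658 CPM in naive wild-type ganglia, a log2 difference of -0.33 (SE 0.14, adjusted p = 0.216) over both conditions. Stxbp2 (Munc18-2), known for granule release in blood cells and epithelia, was at 113, 136 and 91.0 CPM in Mettl14cKO SNLD1 libraries, against 88.9, 71.7 and 63.9 CPM in wild-type SNLD1 libraries. Its naive libraries overlapped, at 148, 58.3 and 76.0 CPM in Mettl14cKO, against 75.0, 49.2 and 74.9 CPM in wild type. The log2 difference was 0.55 (SE 0.19, adjusted p = 0.137) over both conditions and 0.50 (SE 0.27, adjusted p = 0.737) in naive mice. Without naive Mettl14cKO library 1, the value in naive mice was 0.02.

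None of the 3 SV2 genes passed between genotypes. Sv2c was at 9.77, 9.02 and 7.996 CPM in Mettl14cKO SNLD1 libraries, against 5.83, 3.20 and 6.22 CPM in wild-type SNLD1 libraries, a log2 difference of 0.82 (SE 0.31, adjusted p = 0.217). In naive mice the genotypes overlapped, at 3.74 to 8.44 CPM in Mettl14cKO and 3.82 to 5.03 CPM in wild type. Sv2a was at 11.3 ± 1.21 CPM in Mettl14cKO SNLD1, 12.3 ± 2.17 in naive Mettl14cKO, 9.47 ± 3.52 in wild-type SNLD1 and 9.16 ± 2.17 CPM in naive wild-type ganglia, and Sv2b spanned 161 to 252 CPM in Mettl14cKO libraries and 189 to 242 CPM in wild-type libraries. Stxbp5 at SNLD1 lay below wild type by -0.46 on the log2 scale (SE 0.17, adjusted p = 0.213). Syt2 in naive mice lay below wild type by -1.04 (SE 0.57, adjusted p = 0.741), at 0.60, 1.57 and 0.74 CPM in Mettl14cKO, against 2.22, 1.91 and 1.75 CPM in wild type. Snap91 (AP180) was at 74.4 ± 8.33 CPM in Mettl14cKO SNLD1, 83.5 ± 8.30 in naive Mettl14cKO, 96.2 ± 18.3 in wild-type SNLD1 and 94.8 ± 11.8 CPM in naive wild-type ganglia.

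Genes that work beside the members were taken from 5 lists. Of 19 active zone and priming genes in the table, 13 were tested, and 2 fell in Mettl14cKO over both conditions, Pclo and Cadps. Over all genes tested in that comparison, 3.33% were called, 1.29% of them lower. Pclo, the scaffold Piccolo, was at 53.3, 44.1 and 68.5 CPM in Mettl14cKO SNLD1 libraries, against 89.2, 90.5 and 87.4 CPM in wild-type SNLD1 libraries. In naive mice it was at 84.4, 78.7 and 92.7 CPM in Mettl14cKO, against 114, 110.0 and 82.0 CPM in wild type. The log2 difference over both conditions was -0.47 (SE 0.12, adjusted p = 0.043). Cadps, which primes dense-core vesicles, was at 189, 191 and 197 CPM in Mettl14cKO SNLD1 libraries, against 244, 311 and 288 CPM in wild-type SNLD1 libraries. In naive mice it was at 219.7, 258 and 235 CPM in Mettl14cKO, against 288, 281 and 255 CPM in wild type. Its log2 difference was -0.38 (SE 0.10, adjusted p = 0.044). Both calls sat close to the threshold. The Pclo call held without Mettl14cKO SNLD1 library 3 or naive wild-type library 3 and was lost without any one of the other 10 libraries, with an adjusted p of up to 0.120. The Cadps call held without naive wild-type library 3 or wild-type SNLD1 library 1 and was lost without any one of the other 10, with an adjusted p of up to 0.126. The median over the 13 tested was -0.21, beside -0.001 over all genes. The 4 pan-neuronal markers lower in Mettl14cKO moved with them, and their part was not tested.

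The vesicle membrane list had 14 of 15 genes tested, and Syngr2, the widely expressed synaptogyrin, rose after the lesion. It was at 16.5, 11.7 and 16.1 CPM in Mettl14cKO SNLD1 libraries, against 8.22, 8.21 and 10.9 CPM in naive Mettl14cKO libraries. In wild type it was at 13.3, 12.2 and 14.8 CPM at SNLD1, against 8.41, 9.41 and 10.6 CPM in naive libraries. No SNLD1 library overlapped a naive one in either genotype. Of all genes, 6.08% lay above naive without overlap in wild type and 8.32% in Mettl14cKO. The log2 difference over both genotypes was 0.59 (SE 0.15, adjusted p = 0.042), by edgeR. In that comparison 2.56% of all genes were called, 2.02% higher. The Syngr2 call was the only one in this list. This call held without naive Mettl14cKO library 3, Mettl14cKO SNLD1 library 2 or wild-type SNLD1 library 2. It was lost without any one of the other 9, with an adjusted p of up to 0.149. None of the 17 genes of SNARE disassembly and the Rab cycle, the 5 tested transmitter transporters or the 23 tested endocytosis genes was called in any RNA-seq comparison.

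In MeRIP-seq, 58 of 65 members were tested and 0 were called by edgeR for IP over input in either condition or over both, as were 0 of all 14705 genes (0%). Over both conditions DESeq2 called 5 members, Snap23, Snap25, Stx7, Vamp3 and Vamp5 (8.62%), beside 811 of all genes (5.52%). It called 0 members in either condition alone. At an unadjusted p under 0.05 by edgeR, 4 members were higher and 10 lower in IP over both conditions (6.9% and 17.2%). Of all genes 1186 and 1349 were (8.07% and 9.17%). In each condition alone 1 member was higher and 4 were lower (1.72% and 6.9%). Of all genes 242 and 366 were at SNLD1 (1.65% and 2.49%), and 357 and 558 in naive mice (2.43% and 3.79%). IP library 3 stood apart from the others in both conditions: Vamp1 was at 19.9, 15.3 and 110.4 CPM in SNLD1 IP libraries and at 18.5, 16.0 and 113 CPM in naive IP libraries, against 165 to 265 CPM in the 4 inputs. Without naive IP library 3, edgeR called 5 members over both conditions (Stx7, Vamp1, Vamp3 and Vamp5 among them), and without SNLD1 IP library 3 it called Vamp5. The calls over all genes in these fits are not given here, so these counts do not set the members apart from other genes. The IP libraries of one group differed widely, with standard errors near 1 on the log2 scale for a single condition, and for none of the 58 members did the 95% interval lie inside a 2-fold change. IP over input is relative to the other genes and not an absolute m6A level. In naive mice, 5 of 58 members lay above input in every IP library, where 12.7% of all genes did, and 11 lay below, where 16.5% did. At SNLD1, 7 lay above, where 10.3% did, and 8 below, where 12.1% did.

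Vamp5, a Vamp of muscle and other non-neuronal cells, had the largest positive value. It was at 179.9, 471 and 122.9 CPM in SNLD1 IP libraries, against 16.6 and 40.7 CPM in SNLD1 inputs, and at 134, 305 and 93.4 CPM in naive IP libraries, against 21.9 and 30.5 CPM in naive inputs. IP and input did not overlap, and the log2 difference was 3.15 (SE 0.96, adjusted p = 0.791) at SNLD1, 2.76 (SE 0.94, adjusted p = 0.710) in naive mice and 2.95 (SE 0.67, adjusted p = 0.215) over both. Stx11 lay above input as well, at 37.9, 26.6 and 12.3 CPM in SNLD1 IP libraries, against 2.38 and 10.4 CPM in SNLD1 inputs, and at 14.2, 28.3 and 4.78 CPM in naive IP libraries, against 2.83 and 4.65 CPM in naive inputs. Its log2 difference was 1.97 (SE 0.76, adjusted p = 0.236) over both and 2.04 (SE 1.08, adjusted p = 0.710) in naive mice. Syt2 was at 54.9, 24.3 and 8.78 CPM in SNLD1 IP libraries, against 1.19 and 10.1 CPM in SNLD1 inputs, a log2 difference of 2.24 (SE 1.22, adjusted p = 0.791), with overlap.

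Vamp3 and Stx7 had the smallest p among the members below input over both conditions, and neither passed. Vamp3, the widely expressed vesicle SNARE cellubrevin, was at 5.11, 3.96 and 19.4 CPM in SNLD1 IP libraries, against 84.4 and 41.0 CPM in SNLD1 inputs, and at 4.602, 0 and 15.9 CPM in naive IP libraries, against 75.1 and 33.4 CPM in naive inputs. The log2 difference was -2.69 (SE 1.12, adjusted p = 0.791) at SNLD1, -2.92 (SE 1.12, adjusted p = 0.710) in naive mice and -2.80 (SE 0.79, adjusted p = 0.215) over both. Stx7, a late endosomal syntaxin, was at 34.0, 33.4 and 198 CPM in SNLD1 IP libraries, against 612 and 277 CPM in SNLD1 inputs, and at 40.5, 47.1 and 209 CPM in naive IP libraries, against 546 and 363 CPM in naive inputs. The log2 difference was -2.32 (SE 0.98, adjusted p = 0.791) at SNLD1 and -2.26 (SE 0.69, adjusted p = 0.215) over both. Snap25 was at 738, 1668 and 1800.4 CPM in naive IP libraries, against 7867 and 5375 CPM in naive inputs, a log2 difference of -2.24 (SE 0.98, adjusted p = 0.710). At SNLD1 it was at 458, 1147 and 1381 CPM in IP libraries, against 6615 and 692 CPM in inputs, so input library 2 fell within the IP range. Vamp1, Vamp4, Stx12, Snap91 and Syt1 also lay below input in every library of both conditions. Over the families, 4 of 6 Vamps, 7 of 14 syntaxins, 4 of 4 Snaps, 7 of 15 synaptotagmins and 2 of 3 synapsins had a negative value. So did 4 of 7 syntaxin-binding proteins, 1 of 2 complexins, 1 of 3 Rims, 1 of 3 SV2 genes and Snap91. That made 32 of 58 members, where 6952 of 14705 genes had a negative value. The members' median was -0.07, beside 0.10 over all genes.

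**Figure D4:**
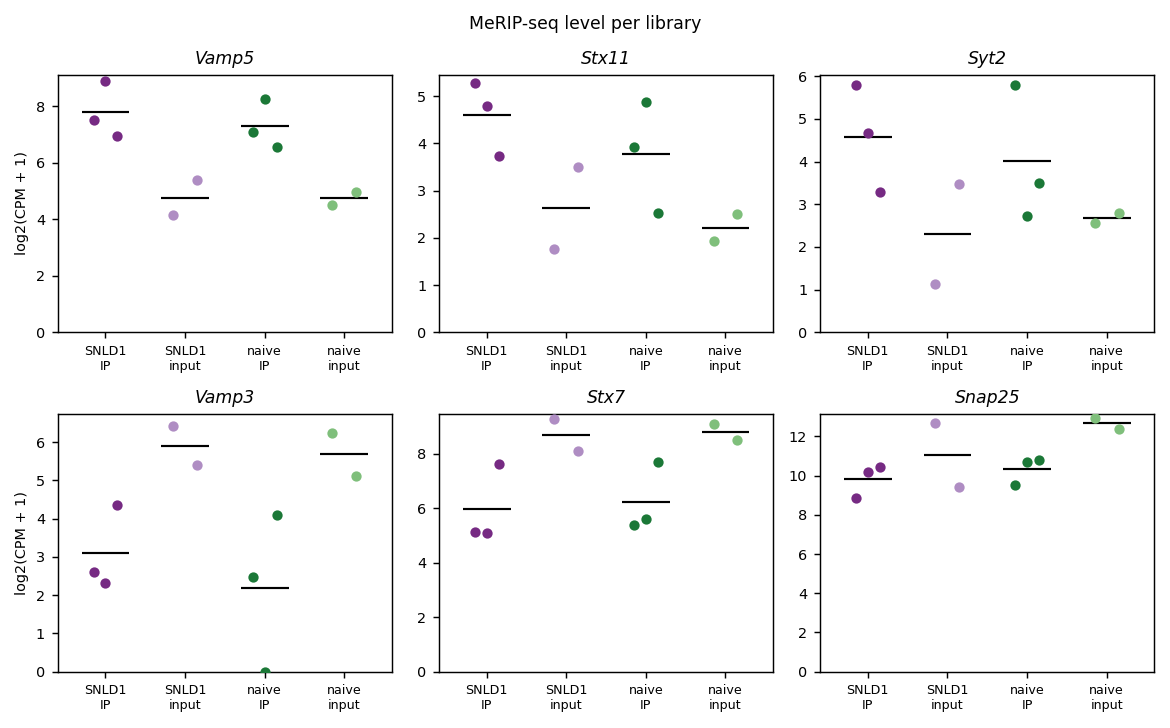
Level in each MeRIP-seq library, as log2(CPM + 1) (y axis), of 6 members, with SNLD1 IP, SNLD1 input, naive IP and naive input from left to right; points are libraries and lines are means (3 IP and 2 input libraries per condition). Vamp5 and Stx11 lay above the inputs of their condition and Vamp3 and Stx7 below them in every IP library, while Snap25 in SNLD1 input library 2 lay within the IP range.

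The change of IP over input with the lesion, SNLD1 minus naive, was not called for any of 58 members or 14705 genes (0%). By that test 22 genes were higher and 8 lower at an unadjusted p under 0.05, and DESeq2 called 0. In this fit without pairing, the 2 members of smallest p in each direction were Syt14 at 1.55 (SE 1.38) and Syt13 at 1.45 (SE 2.28), then Syt3 at -1.89 (SE 1.80) and Cplx2 at -0.69 (SE 1.30). None had an unadjusted p under 0.05. For Cplx2 the value turned to 1.33 without SNLD1 input library 2. Same-numbered naive and SNLD1 IP libraries deviated together. With that pairing as a block within IP and within input 0 of 58 members were called, and the median SE fell to 0.74, against 1.40 without it. In that fit the values were 1.18 (SE 0.90) for Syt14, 2.05 (SE 2.17) for Syt13, -1.93 (SE 1.41) for Syt3 and -0.48 (SE 0.65) for Cplx2. Snap25 had the smallest p there, at 1.07 (SE 0.66, unadjusted p = 0.132 by edgeR).

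The members with sites did not stand apart clearly in the pulldown. Those with a site in either list had a median log2 IP over input of 0.07 (range -2.26 to 2.95, 36 members), and those with none -0.27 (range -2.80 to 1.12, 22 members). Across the 58 members Spearman's rho between the number of m6A positions and IP over input was 0.13, and between input level and IP over input -0.45. Genes are not independent replicates, and the number of positions and IP over input both depend on RNA level. Input is also the denominator of IP over input, so noise in the inputs alone can make the second rho negative, and nothing is concluded from it. The 5 members with most sites had enrichment between -0.08 (Cplx1) and 2.19 (Syt2), and Snap25, with 9 positions, lay below input.

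**Figure D5:**
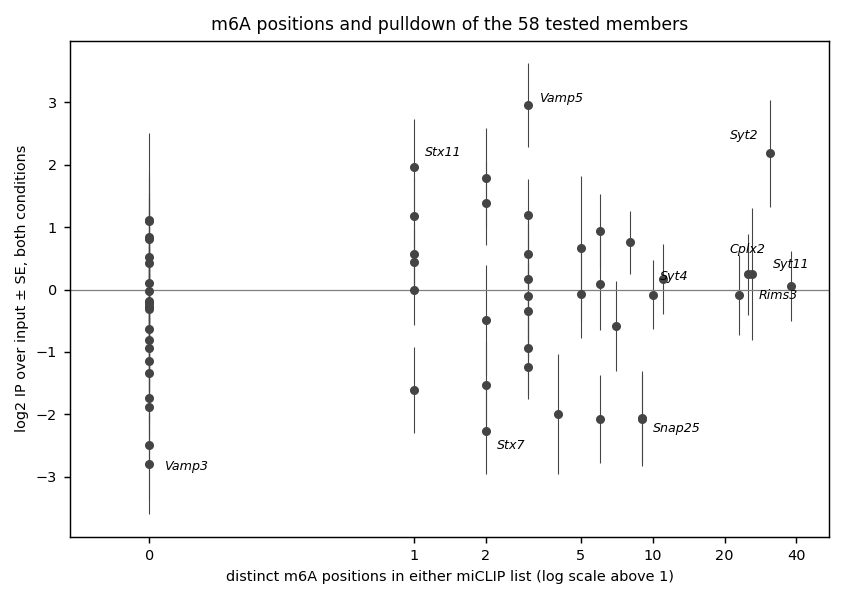
Distinct m6A positions in either miCLIP list (x axis, log scale above 1) against log2 IP over input with SE (y axis, mean of both conditions) for the 58 members tested in MeRIP-seq. Members with many positions such as Syt11 and Cplx2 lie near 0, Vamp5 at 2.95 has 3 positions and Vamp3 at -2.80 has 0.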

How the data were processed

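Members, gene lists, tests and alternatives were chosen with earlier results of these data known. Raw counts per gene symbol were deposited by the authors for both sequencing assays. Per the labels' protocols RNA was poly(A)-selected and libraries followed Smart-seq2. The miCLIP lists deposited by the authors give per site a value of unit other, a score that equals mutated reads over covering reads to within 0.00001. The submitters' processing notes name Trimmomatic, STAR, DESeq2 and mm10. Read counter and site caller: not given in the sources used here.

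The tests used edgeR 4.0.16 in R 4.3.3: filterByExpr, TMM, and a quasi-likelihood model (glmQLFit, glmQLFTest) over all 12 RNA-seq libraries as 4 groups and over all 10 MeRIP-seq libraries as 4 groups, with Benjamini-Hochberg adjustment over all genes tested and calls at an adjusted p under 0.05. "Over both" is the mean of the effects in the 2 genotypes or conditions. DESeq2 1.42.0 was an alternative. CPM use TMM-adjusted totals. No transcript length was used, so levels are not compared between genes. The labels do not state which animals the replicates came from. Levels of Y-linked genes differed between replicates of every RNA-seq group, so these do not all come from the same mice; in MeRIP-seq the spread among libraries may be technical. Sites were assigned to GRCm38.p6 RefSeq gene spans without exons, with Python 3.11.15. Intervals are exact (95%) and cover counting error only. All 66 members matched a span, and that of Vamp7 is uncertain.

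Replicate numbers were checked for pairing by the correlation of deviations from group means. Same-numbered naive and SNLD1 IP libraries correlated at 0.47 to 0.73 in 3 of 3 pairs. A fit with that pairing as a block was therefore run for the change of IP over input, beside the main fit, which did not use it. Same-numbered IP and input libraries correlated at -0.29 to -0.02, and RNA-seq numbers did not pair. Named members were the 2 of smallest p per direction in each comparison, those called, the 8 with most sites and a fixed set of core release genes. Members that had no overlap between groups were named after their values were seen. Results of some members are not reported here by name.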

Additional observations from a re-analysis of the deposited data

How the results depend on the processing

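The alternatives were DESeq2, RLE factors, no filter on low counts, only the libraries compared, a replicate block, each library left out, a covariate of Y-linked counts (RNA-seq) and MeRIP-seq without its 3 smallest libraries. Main counts of members called were 1 for SNLD1 over naive over both genotypes and 0 elsewhere. For SNLD1 over naive, DESeq2 called 2 over both genotypes and 2 in wild type, no filter called 2 in wild type, and the Y-linked covariate called 1 in wild type. For Mettl14cKO over wild type, DESeq2 called 1 and no filter called 2 over both conditions, and no filter called 1 at SNLD1. For IP over input over both conditions, DESeq2 called 5 (Snap23, Snap25, Stx7, Vamp3 and Vamp5) and no filter called 4. Leaving out 1 library gave 0 to 2 members for SNLD1 over naive over both genotypes, 0 to 1 in wild type, 0 to 1 for Mettl14cKO over wild type over both conditions and 0 to 5 for IP over input over both conditions (5 without naive IP library 3, 1 without SNLD1 IP library 3). The calls over all genes with 1 library left out are not given here. The log2 difference between injury effects on Stx11 ranged from -0.79 to 0.031 (without wild-type SNLD1 library 3), and the change of IP over input for Cplx2 from -1.52 to 1.33.

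RNA-seq replicate numbers are only numbers: same-numbered libraries correlated at -0.06 to 0.57, and no group pair had every library best with its own number. With the replicate block, 1 member was called for SNLD1 over naive in wild type (Syt4), 1 for Mettl14cKO over wild type over both conditions (Snap47), 13 for IP over input over both conditions, 7 in naive mice and 7 at SNLD1 (22.4%, 12.1% and 12.1%, where 17.7%, 7.33% and 6.37% of all genes were called). A replicate block within IP and within input, added after seeing the data, left the change of IP over input at 0. The same fit called 25 members for IP over input over both conditions, 13 in naive mice and 11 at SNLD1 (43.1%, 22.4% and 19.0%, where 33.7%, 17.3% and 15.1% of all genes were called), but it takes out the spread between IP libraries that this comparison is tested against, so those p-values are too small and were not used. The block changed no other count of members called.

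Over all genes, calls by DESeq2 and without the filter, beside the edgeR count, were 811 and 463 beside 0 (IP over input, both conditions), 647 and 857 beside 442 (genotype, both conditions), 416 and 570 beside 194 (genotype, SNLD1), 77 and 191 beside 38 (genotype, naive), 471 and 560 beside 340 (lesion, both genotypes), 211 and 256 beside 136 (lesion, wild type) and 192 and 281 beside 91 (lesion, Mettl14cKO).

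Of the 36 members with a site, 5 had one with at least 3 mutated reads (2 in the SNL list and 5 in the naive list; 3.03% and 7.58%, where 1.01% and 0.835% of all symbols did), and 16 had one in both lists, an alternative added after seeing the data (24.2%, where 7.05% of all symbols did). Only sites on the gene's strand gave 27 of 49 members (55.1%, where 27.5% of all symbols did). The causes of these shifts were not tested. MeRIP-seq is limited by its 3 smallest libraries (846785 to 1534778 counts), and miCLIP by single mutated reads.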

Other observations

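Syt2 and Rims3 were among the 5 members with most m6A sites, with 34 and 33 entries, while their RNA-seq levels were low. Syt2 was at 0.42 to 3.07 CPM over the 12 RNA-seq libraries and Rims3 at up to 1.07 CPM. In MeRIP-seq inputs Syt2 was at 1.19 and 10.1 CPM at SNLD1 and at 4.89 and 5.97 CPM in naive mice. Of the 31 distinct Syt2 positions, 3 were listed at the same base in both lists, against 7 of 26 for Rims3 and 11 of 38 for Syt11.

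Snap25 differed by library in the MeRIP-seq inputs, at 6615 and 692 CPM at SNLD1, against 7867 and 5375 CPM in naive mice, while the 12 RNA-seq libraries spanned 3629 to 5765 CPM. Snap23 showed the same input library low, at 44.0 and 5.03 CPM at SNLD1, against 37.1 and 38.3 CPM in naive inputs. Vamp2 was highest in that library, at 19.0 and 223 CPM at SNLD1, against 25.5 and 103 CPM in naive inputs.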
